A study of Mus musculus with 18 samples.

Results

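The 8 genes described here are the 3 colony-stimulating factors Csf1, Csf2 and Csf3 and their 5 receptor genes Csf1r, Csf2ra, Csf2rb, Csf2rb2 and Csf3r. They were chosen by symbol, and all 8 were found among the 21441 genes of each of 2 tables, for RAW264.7 macrophages and for mouse liver. RAW264.7 is a single mouse macrophage-like cell line, and LPS is the outer membrane component of Gram-negative bacteria that macrophages sense through Toll-like receptor signalling. MIC-1 is moringa isothiocyanate-1, a compound from moringa seeds. Each table holds 3 control, 3 LPS and 3 LPS+MIC-1 libraries. The cultures with MIC-1 received 10 µM of it besides LPS, the control cultures neither, and the LPS concentration of the sequenced cultures is not given in the sources used here. The livers came from wild type male C57BL/6 mice killed 16 h after an injection into the peritoneum. Control mice were injected with saline, and LPS mice with 10 mg/kg LPS. LPS+MIC-1 mice took MIC-1 in 10% DMSO by gavage (80 mg/kg, over 3 days) and were then injected with the same dose of LPS, while mice not given MIC-1 were gavaged with the vehicle. The 9 liver libraries are from 9 mice. The mice's ages and whether the macrophage libraries are separate cultures are not given, so p-values in macrophages measure the spread between these libraries only. The labels of the macrophage libraries repeat the strain and doses of the mice.

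Colony-stimulating factors are secreted proteins that keep myeloid cells alive, make them divide and drive their maturation. Csf1 (M-CSF) acts on macrophages and their precursors through Csf1r, a receptor tyrosine kinase that is also bound by Il34. Csf2 (GM-CSF) binds the alpha chain Csf2ra, which signals through the common beta chain Csf2rb, shared in the mouse with the receptors of Il3 and Il5, while Csf2rb2 encodes a second, Il3-specific beta chain. Csf3 (G-CSF) acts on neutrophils and their precursors through Csf3r. The cytokine receptors signal through Jak kinases and Stat factors and induce their own inhibitors of the Cish and Socs family. Macrophages and other cells release Csf2 and Csf3 after LPS, and the liver's own macrophages, the Kupffer cells, depend on Csf1.

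Levels are FPKM, fragments per kilobase of transcript relative to library size, so they can be compared between genes within a library. The 2 tables were scaled separately, and values were tested only within a table. Log2FC is the difference in mean log2(FPKM + 0.5), so that changes of genes near 0 FPKM come out too small. Genes averaging more than 1 FPKM across a table's 9 libraries were tested with limma and Benjamini-Hochberg adjustment. This left 9905 genes and 7 of the 8 members in macrophages, where Csf3r was below the limit, and 10147 genes and 5 members in liver, where Csf2, Csf2rb2 and Csf3r were below it. A gene was called at an absolute Log2FC above 1 and an adjusted p below 0.01 in macrophages or 0.05 in liver. With 3 libraries against 3, an exact permutation test of a single gene cannot go below p = 0.1.

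The estimated depth was 16.2 to 20.6 M (mega) reads in macrophages and 4.26 to 17.3 M reads in liver, where the controls were the shallowest. Summed macrophage markers were at 10600 to 13400 FPKM in the RAW264.7 libraries, against at most 13.9 FPKM for hepatocyte markers, and hepatocyte markers summed to 35570 to 81530 FPKM in liver. The macrophage library labelled LPS library 2 stood at control level, with the chemokine gene Ccl5 at 115 FPKM against 24670 and 25370 in LPS libraries 1 and 3 and 46.7 to 101 in the controls. Its squared distance to control library 2 was 2.07 times the sampling variance, as small as that between control libraries 1 and 3 (2.07), and 81.5 to LPS library 1. The library thus goes against its label, and whether it is mislabelled was not settled. Per a figure legend of the study, its own macrophage comparisons used fewer LPS replicates than are given here, and the one left out is not named there. Most macrophage results of the tested members are therefore also given without LPS library 2, which leaves 2 LPS libraries. Several other macrophage results are given over all 9 libraries only. In every treatment, libraries 1 and 3 lay close together, at 2.07 times the sampling variance in controls, 2.11 under LPS and 1.69 under LPS+MIC-1, and library 2 stood apart from both by at least 9.69, 81.5 and 12.2 times. Whether the 3 libraries of a treatment are independent samples is not given. With libraries 1 and 3 averaged as 1 sample, limma called 0 of the 9905 genes in each comparison. In liver, control library 1 stood 33.7 and 41.4 times the sampling variance from the other controls, LPS library 2 stood 77.8 and 75.4 from the other LPS libraries, and LPS+MIC-1 library 2 stood 41.1 and 38.8 from its own group but 30.6 from LPS library 2.

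Upstream sequences are shown because the study asked about NF-kB and Nrf2, factors that bind DNA near gene starts. The RefSeq promoter table (GRCm38.p6) held 5 of the 8 members, and not Csf3, Csf1r or Csf2rb. The 250 bases before the start are printed 5′ to 3′ for the 4 genes whose window lies outside the gene, with positions from an exact match to mm9, the build of the authors' index. Capitals mark matches on either strand to 3 G, any 5 bases and 2 C (NF-kB), TGANTCA (AP-1), TGACNNNGC (the antioxidant response element that Nrf2 binds), TTGCNNAA (C/EBP) and GAGGAA (ETS), where overlapping matches run together. The windows are chr3:107563388-107563637 for Csf1, chr11:54063402-54063651 for Csf2, chr19:61304322-61304571 for Csf2ra and chr15:78136152-78136401 for Csf2rb2, all on the minus strand.
Csf1: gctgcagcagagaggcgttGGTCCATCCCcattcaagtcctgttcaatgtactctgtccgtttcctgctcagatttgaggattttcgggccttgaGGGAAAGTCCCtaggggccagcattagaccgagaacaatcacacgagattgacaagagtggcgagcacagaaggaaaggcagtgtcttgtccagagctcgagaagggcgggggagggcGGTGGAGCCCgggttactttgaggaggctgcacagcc
Csf2: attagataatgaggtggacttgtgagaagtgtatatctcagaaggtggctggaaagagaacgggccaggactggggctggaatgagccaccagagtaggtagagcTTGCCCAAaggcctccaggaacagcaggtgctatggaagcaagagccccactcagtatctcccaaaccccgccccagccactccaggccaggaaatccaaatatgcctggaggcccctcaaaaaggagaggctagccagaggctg
Csf2ra: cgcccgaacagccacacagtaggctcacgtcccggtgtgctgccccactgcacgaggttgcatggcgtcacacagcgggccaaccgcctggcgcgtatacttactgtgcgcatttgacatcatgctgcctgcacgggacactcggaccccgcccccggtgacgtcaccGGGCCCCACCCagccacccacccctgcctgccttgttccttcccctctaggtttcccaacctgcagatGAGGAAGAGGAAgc
Csf2rb2: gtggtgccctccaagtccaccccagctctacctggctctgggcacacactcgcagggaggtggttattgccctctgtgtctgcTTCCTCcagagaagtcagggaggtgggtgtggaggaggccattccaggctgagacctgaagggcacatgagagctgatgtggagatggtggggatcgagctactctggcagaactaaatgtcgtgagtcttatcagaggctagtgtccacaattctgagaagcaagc
The Csf1 window held 4 NF-kB matches, of which those at 155 to 146 and 154 to 145 bases before the start overlap. The Csf2 window held a C/EBP match at 145 to 138 bases before the RefSeq start, which lies 232 bases upstream of the start in GENCODE. The Csf2ra window held 2 overlapping NF-kB matches and 2 adjoining ETS matches, and the Csf2rb2 window 1 ETS match. Of the 32851 promoters in the table, 45.8% held the NF-kB letters, 6.75% AP-1, 10.2% the antioxidant response element, 9.56% C/EBP and 23.3% ETS. These are matches of letters, and binding was not measured.

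In macrophages the ligand genes Csf3 and Csf2 were highest with LPS+MIC-1, as were the beta chains Csf2rb and Csf2rb2. LPS+MIC-1 stood above control by a Log2FC of 10.41 for Csf3 and 3.72 for Csf2, and above LPS by 3.16 for Csf2. Csf1r was lower in all treated libraries but LPS library 2, and Csf2ra was higher in all of them. Csf1 was low throughout, and lowest in LPS libraries 1 and 3.

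**Figure D1:**
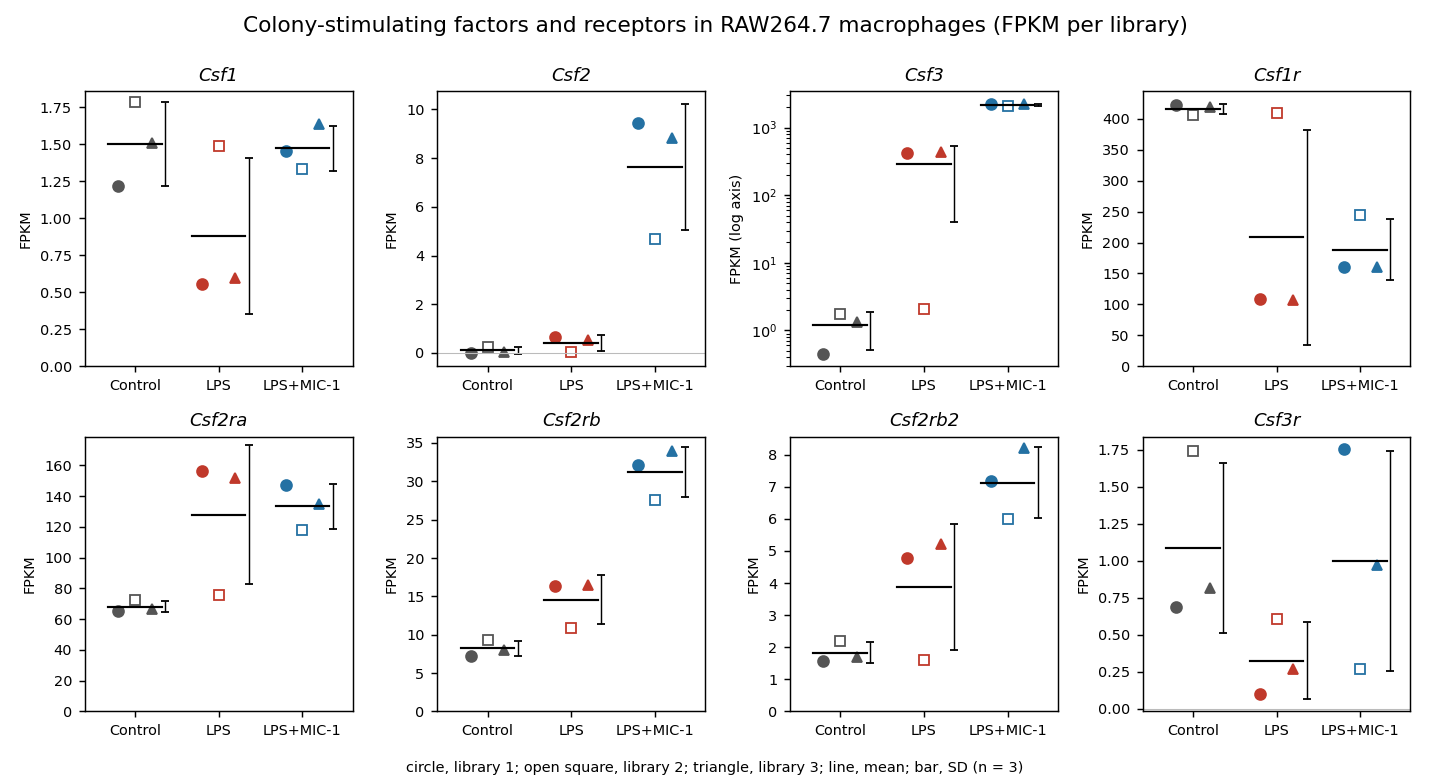
FPKM of the 8 genes (vertical axes; logarithmic for Csf3) in each of the 9 RAW264.7 libraries, grouped as control, LPS and LPS+MIC-1 on the horizontal axes, with the mean as a line and the SD of 3 libraries as a bar. In the LPS group the open square, library 2, sits at the control level for Csf3 (2.08 FPKM), Csf1r (409) and Csf2ra (75.8), while LPS+MIC-1 lies above the other groups for Csf2, Csf3, Csf2rb and Csf2rb2.

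Csf3, the neutrophil growth factor on chromosome 11 (mm9 98562577 to 98564943, plus strand), had control values of 0.451, 1.77 and 1.35 FPKM. The LPS libraries held 426, 2.08 and 431 FPKM, and the LPS+MIC-1 libraries 2191, 2084 and 2214. The 3 LPS+MIC-1 libraries lay close together and above all others, LPS libraries 1 and 3 lay close together far above control, and LPS library 2 lay just above the highest control. Over the 9 libraries Csf3 rose between control and LPS+MIC-1 by a Log2FC of 10.41 ± 1.75 (SE; adjusted p = 0.00557, limma). Its Log2FC was 5.62 ± 1.75 between LPS and control (adjusted p = 0.0777) and 4.79 ± 1.75 between LPS+MIC-1 and LPS (adjusted p = 0.0839), neither of which passed. Without LPS library 2 all 3 passed, with Csf3 rising by 8.08 ± 0.31 with LPS (adjusted p = 1.14e-06) and by a further 2.33 ± 0.31 with MIC-1 added (adjusted p = 0.000355). Mean Csf3 with LPS+MIC-1 (2163 ± 69.2 FPKM, SD, n = 3) was 5.04 times that of LPS libraries 1 and 3 (429 FPKM). With all 9 libraries, leaving out any single control or LPS+MIC-1 library took the call against control away (adjusted p = 0.0205 to 0.0304), as did averaging libraries 1 and 3 of each treatment (adjusted p = 0.153).

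Csf2, which drives macrophage and granulocyte growth and activation, lies on chromosome 11 (mm9 54060773 to 54063169, minus strand). It overlaps the noncoding gene Gm12223 on the opposite strand, and whether the counting used strand is not given, so reads of the 2 cannot be told apart. Csf2 was at 0, 0.260 and 0.0493 FPKM in the controls and at 0.662, 0.0522 and 0.545 FPKM with LPS. With LPS+MIC-1 it was at 9.42, 4.66 and 8.82 FPKM. These are few reads, about 0, 4.37 and 0.829 normalized counts in the controls, 11.1, 0.877 and 9.16 under LPS and 158, 78.4 and 148 under LPS+MIC-1. Every LPS+MIC-1 library was above every other library, and LPS and control overlapped through LPS library 2. Csf2 rose by a Log2FC of 3.16 ± 0.37 between LPS and LPS+MIC-1 (SE; adjusted p = 0.00179, limma) and by 3.72 ± 0.37 between control and LPS+MIC-1 (adjusted p = 0.000843). Without LPS library 2 the first of these was 2.83 ± 0.31 (adjusted p = 0.000134). Csf2 did not pass between LPS and control over 9 libraries (0.56 ± 0.37, adjusted p = 0.241) or over 8 (0.89 ± 0.31, adjusted p = 0.0317). The call against LPS was lost without LPS+MIC-1 library 1 (adjusted p = 0.0135) or library 3 (adjusted p = 0.0136), and in a fit of the LPS and LPS+MIC-1 libraries alone (adjusted p = 0.0181). With libraries 1 and 3 of each treatment averaged, neither call of Csf2 held (adjusted p = 0.126 against LPS and 0.106 against control).

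Csf1, the growth factor of macrophages themselves, lies on chromosome 3 (mm9 107543966 to 107563387, minus strand). Its control libraries held 1.22, 1.78 and 1.51 FPKM, its LPS libraries 0.559, 1.49 and 0.595 and its LPS+MIC-1 libraries 1.46, 1.33 and 1.64. LPS libraries 1 and 3 were the lowest of the 9, and the controls and LPS+MIC-1 overlapped. No comparison called Csf1 over 9 libraries, with a Log2FC of -0.59 ± 0.27 between LPS and control (adjusted p = 0.115, limma) and -0.01 ± 0.27 between LPS+MIC-1 and control (adjusted p = 0.977). Without LPS library 2 the differences of LPS from control (-0.89 ± 0.17, adjusted p = 0.00181) and of LPS+MIC-1 from LPS (0.87 ± 0.17, adjusted p = 0.00248) passed the p but not the fold.

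Csf1r, the receptor of Csf1 and a defining gene of macrophages, lies on chromosome 18 and had the highest level of the 8 genes in the control libraries. It overlaps Hmgxb3 on the opposite strand, and the same limit on strand holds. Csf1r was at 423, 406 and 419 FPKM in controls, 109, 409 and 108 under LPS and 160, 245 and 160 under LPS+MIC-1. All LPS+MIC-1 libraries were below all controls, LPS libraries 1 and 3 were the lowest of the 9, and LPS library 2 lay within the controls. Over the 9 libraries the Log2FC was -1.30 ± 0.48 between LPS and control (SE; adjusted p = 0.0779, limma) and -1.17 ± 0.48 between LPS+MIC-1 and control (adjusted p = 0.111), and neither was called. Without LPS library 2 both were, with Csf1r falling by 1.94 on the log2 scale with LPS (SE 0.17, adjusted p = 2.94e-05) and by 1.17 with LPS+MIC-1 (SE 0.16, adjusted p = 0.000432). Mean Csf1r in LPS libraries 1 and 3 was 0.26 times the control mean, and that of LPS+MIC-1 was 0.454 times. Csf1r with LPS+MIC-1 was 0.77 ± 0.17 above LPS over the 8 libraries (adjusted p = 0.00516), short of the fold.

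Csf2ra, the alpha chain that binds Csf2, lies on chromosome 19 (mm9 61300305 to 61304321, minus strand). It was at 65.3, 72.3 and 66.9 FPKM in controls, 157, 75.8 and 152 under LPS and 147, 118 and 135 under LPS+MIC-1. Every treated library was above every control, LPS library 2 by the least. The Log2FC of 0.83 ± 0.26 with LPS (SE; adjusted p = 0.0777, limma) and 0.96 ± 0.26 with LPS+MIC-1 (adjusted p = 0.0329) did not pass over 9 libraries. Over 8, Csf2ra rose with LPS by 1.17 ± 0.10 (adjusted p = 2.02e-05), though by 0.18 without a call when FPKM were rescaled to an equal sum, and LPS+MIC-1 stayed under the fold at 0.96 ± 0.09 (adjusted p = 6.74e-05). LPS+MIC-1 differed from LPS by 0.13 ± 0.26 over 9 libraries and by -0.21 ± 0.10 over 8, not called in either.

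The beta chains Csf2rb and Csf2rb2 are neighbours on chromosome 15, 20367 bases apart, at mm9 78156420 to 78184277 on the plus strand and 78112947 to 78136052 on the minus strand. Their transcripts are alike, and 27.6% of the 31-base words of Csf2rb and 30.8% of those of Csf2rb2 occurred in transcripts of other protein-coding genes, nearly all in each other. Reads within such stretches can only be split between the 2 by estimate, so their separate levels are uncertain. The longest identical run of the coding sequences was 242 bases, at positions 2083 to 2324 of each. Positions 2023 to 2142, around its beginning, are shown with the 5 differing bases in capitals, from GENCODE vM1 transcripts.
Csf2rb: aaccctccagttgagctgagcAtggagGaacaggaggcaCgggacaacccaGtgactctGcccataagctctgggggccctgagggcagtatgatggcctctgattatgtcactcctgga
Csf2rb2: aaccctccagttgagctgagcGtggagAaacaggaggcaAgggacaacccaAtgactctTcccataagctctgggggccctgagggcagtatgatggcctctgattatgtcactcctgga
Csf2rb was at 7.29, 9.30 and 8.04 FPKM in controls, 16.3, 10.9 and 16.5 under LPS and 32.1, 27.6 and 33.9 under LPS+MIC-1. The 3 groups did not overlap, and LPS library 2 was nearest to the controls. Csf2rb rose by a Log2FC of 1.09 ± 0.18 between LPS and LPS+MIC-1 (SE; adjusted p = 0.00698, limma) and by 1.87 ± 0.18 between control and LPS+MIC-1 (adjusted p = 0.000774). Between LPS and control its 0.77 ± 0.18 did not pass (adjusted p = 0.0777). Without LPS library 2 the difference of LPS from control was 0.96 ± 0.12 (adjusted p = 0.000176) and that of LPS+MIC-1 from LPS 0.90 ± 0.12 (adjusted p = 0.00035), both under the fold. Over the 9 libraries, leaving out any other library also took the call of Csf2rb against LPS away (adjusted p = 0.0138 to 0.0379), as did a fit of those 2 groups alone (adjusted p = 0.0402). With libraries 1 and 3 averaged, neither call of Csf2rb held (adjusted p = 0.216 against LPS and 0.107 against control).

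Csf2rb2 was at 1.57, 2.20 and 1.71 FPKM in controls, 4.79, 1.62 and 5.23 under LPS and 7.18, 5.99 and 8.20 under LPS+MIC-1. LPS+MIC-1 was above both other groups without overlap, and LPS overlapped control through library 2. None of the 3 comparisons called it over 9 libraries, the nearest being LPS+MIC-1 against control (Log2FC 1.71 ± 0.36, adjusted p = 0.0138, limma). Over 8 libraries it rose with LPS by 1.25 ± 0.16 (adjusted p = 0.000207), which became 0.40 without a call at an equal FPKM sum, and with LPS+MIC-1 by 1.71 ± 0.14 (adjusted p = 4.72e-05). With Csf2rb and Csf2rb2 summed, LPS+MIC-1 stood 1.88 above control (adjusted p = 0.00139) and 1.07 above LPS, which missed the threshold (adjusted p = 0.0144).

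Csf3r, the receptor of Csf3, lies on chromosome 4 (mm9 125701794 to 125722219, plus strand) and stayed under the limit for testing at a mean of 0.801 FPKM. It was at 0.688, 1.74 and 0.818 FPKM in controls, 0.0962, 0.606 and 0.271 under LPS and 1.75, 0.266 and 0.967 under LPS+MIC-1. All LPS libraries were below all controls by a small margin, and LPS+MIC-1 overlapped both groups.

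Of the 7 tested members, 2 were called with all 9 macrophage libraries when LPS+MIC-1 was set against LPS, where 3.87% of all genes were. Between LPS+MIC-1 and control 3 of 7 were called, against 5.59% of all genes. Csf2, called in both, passed the limit for testing only through the LPS+MIC-1 libraries, the group in which it was then called higher. Its mean was 7.64 FPKM there, 0.42 with LPS and 0.103 in control. Between LPS and control limma called 0 members and 0.0% of all genes, while 2 members, Csf3 and Csf1r, passed the fold at an unadjusted p below 0.05, as did 19.2% of all genes. The members' median Log2FC in these comparisons was 0.92, 1.71 and 0.77, beside -0.01, -0.04 and -0.03 over all genes. Without LPS library 2 the numbers called were 2 of 7 with MIC-1 added (23.3% of all genes), 5 of 7 between LPS+MIC-1 and control (15.7%) and 4 of 7 between LPS and control (34.2%). With 7 genes these shares describe the list only. All comparisons of a table share libraries.

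**Figure D2:**
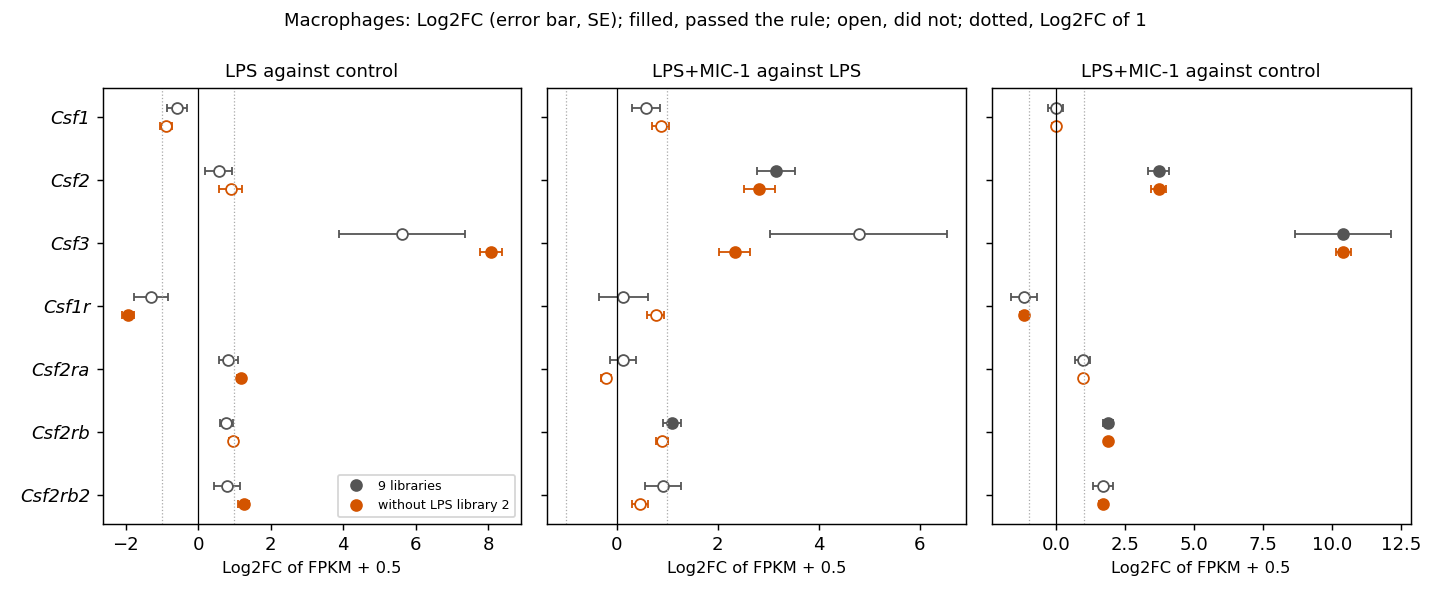
Log2FC of FPKM + 0.5 (horizontal axes, error bars SE) of the 7 tested genes in RAW264.7 cells for the 3 comparisons, over 9 libraries (grey) and without LPS library 2 (orange), filled where the call rule was passed. Without that library Csf3 moved from 5.62 to 8.08 between LPS and control and from 4.79 to 2.33 between LPS+MIC-1 and LPS, and its error bars shrank.

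The scaling between libraries bears on the LPS values. The FPKM of LPS libraries 1 and 3 summed to 1137533 and 1132904, against 557136 to 592848 in the controls and 647770 to 652486 with LPS+MIC-1. Rescaled to an equal sum and without LPS library 2, the median Log2FC of all genes between LPS and control moved from -0.02 to -0.93. The difference of LPS from control then came to 0.18 for Csf2ra, 0.01 for Csf2rb and 0.40 for Csf2rb2, none of them called, whereas Csf3 (7.18) stayed higher and Csf1r (-2.93) and Csf1 (-1.44) lower with a call. Between LPS+MIC-1 and LPS, Csf1 (1.28), Csf1r (1.57), Csf2rb (1.68) and Csf2rb2 (1.18) were then called higher along with Csf2 and Csf3. Between LPS+MIC-1 and control the signs were the same under every scaling. The same rescaling turned the calls of all genes without LPS library 2 between LPS and control from 1610 higher and 1776 lower to 497 and 4555, and between LPS+MIC-1 and LPS from 1121 and 1189 to 3573 and 270. For LPS+MIC-1 against control it turned 748 higher and 812 lower into 591 and 1125.

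The order of the levels changed between groups. In control cells Csf1r (416 ± 8.82 FPKM, SD, n = 3) led, followed by Csf2ra (68.2 ± 3.69) and Csf2rb (8.21 ± 1.02) without overlap, then Csf2rb2, Csf1, Csf3 and Csf3r, whose neighbours overlapped, and Csf2 last. With LPS+MIC-1 Csf3 led (2163 FPKM), followed without overlap by Csf1r (189 ± 49.0), Csf2ra (133 ± 14.6) and Csf2rb (31.2 ± 3.24). Csf2 (7.64 ± 2.59) then overlapped Csf2rb2 (7.12 ± 1.10), and Csf1 overlapped Csf3r. In the LPS group Csf3 overlapped Csf1r and Csf1r overlapped Csf2ra, with Csf1r leading in LPS library 2 and Csf3 in the other 2 libraries.

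Among 9 other haematopoietic growth factors, 3 were tested in macrophages, Kitl, Flt3l and Lif, and none was called over 9 libraries. Lif, an Il6-family cytokine, was at 1.60, 3.49 and 1.77 FPKM in controls, 43.4, 3.30 and 42.3 under LPS and 84.6, 35.3 and 80.2 under LPS+MIC-1. Over 8 libraries 2 of the 3 were called higher with LPS and 1 with LPS+MIC-1 against control, where 34.2% and 15.7% of all genes were called. Lif rose by a Log2FC of 4.02 ± 0.41 with LPS and 4.55 ± 0.37 with LPS+MIC-1 against control over these 8 (adjusted p = 5.87e-05 and 3.88e-05, limma). Il34, the other ligand of Csf1r, was at 0 to 0.377 FPKM. None of 8 related receptors was tested, and Il3ra, the partner of Csf2rb2, was listed at 0 in all 9 libraries.

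Of 29 genes of signalling below these receptors, 28 were tested. Between LPS+MIC-1 and control 4 were called over 9 libraries, 3 higher and 1 lower, where 5.59% of all genes were. Pim2, a survival kinase induced by Stat5, rose from 5.08 to 5.39 FPKM in control to 53.6, 35.0 and 54.2 FPKM with LPS+MIC-1 (Log2FC 3.03 ± 0.44, adjusted p = 0.00313, limma), and Cish, a Stat5-induced inhibitor, rose by 2.44 ± 0.44 (adjusted p = 0.00718). The kinase gene Lyn rose by 1.06 ± 0.17 (adjusted p = 0.00462), and Ccnd1, which drives entry into the cell cycle, fell by 1.12 on the log2 scale (SE 0.21, adjusted p = 0.00797). No gene of this list was called between LPS and control or between LPS+MIC-1 and LPS over 9 libraries, where Inpp5d (0.66, adjusted p = 0.01) and Pim2 (1.79, adjusted p = 0.0263) had the smallest p-values of the second and Myc (2.33, adjusted p = 0.0777) and Sykb (1.77, adjusted p = 0.0777) those of the first. Over 8 libraries 12 of 28 were called with LPS, 10 higher and 2 lower, where 34.2% of all genes were called, and 5 of 28 between LPS+MIC-1 and LPS, 2 higher and 3 lower, where 23.3% were. The latter were Socs3 (1.41) and Pim2 (1.22), higher, and Pim1 (-2.52), Tyrobp (-1.40) and Bcl2l1 (-1.07), lower. Pim1 was at 283, 39.5 and 303 FPKM with LPS and at 56.8, 40.4 and 56.2 FPKM with LPS+MIC-1. The median Log2FC of the list over 9 libraries was 0.30, -0.02 and 0.23 for LPS against control, LPS+MIC-1 against LPS and LPS+MIC-1 against control.

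Of 12 myeloid transcription factors, 10 were tested in macrophages. Cebpd (1.47 ± 0.24, adjusted p = 0.00646, limma) and Ets2 (1.79 ± 0.27, adjusted p = 0.00443) rose between LPS and LPS+MIC-1. Among markers of other cells, those of neutrophils summed to 8.43 to 29.7 FPKM in control, 30.5 to 254 with LPS and 778 to 916 with LPS+MIC-1. The sums with LPS+MIC-1 were mostly S100a8 (652 to 718 FPKM). Those with LPS were mostly Mmp9, at 215, 25.4 and 210 FPKM, which was at 160, 78.4 and 160 FPKM with LPS+MIC-1. The part of these markers in the results was not tested.

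By Pearson's r of log2(FPKM + 0.5) over the 9 macrophage libraries, the genes most like Csf3 were Pmp22 (r = 0.999), Ercc1 (0.998) and Rab11fip1 (0.997). Those most like Csf2 were Edn1 (0.994), Zswim6 (0.993) and Lphn2 (0.99), those most like Csf1r were Cdc45 (0.998), Erh (0.998) and Yeats4 (0.998), and those most like Csf2rb were Ppp2r5b (0.997), Phlda1 (0.997) and Ptpn22 (0.994). These are descriptions over libraries that fall into 3 groups. Csf1r had 65 genes and Csf3 33 genes at r above 0.99.

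In the liver the common beta chain Csf2rb rose with LPS and with LPS+MIC-1, and no other member was called. Csf1 and Csf2ra were 1.74 and 2.01 times as high on average with LPS as in control and missed the rule, and Csf1r overlapped between all groups. Csf3 was highest in 2 of the 3 LPS livers. No member was called between LPS+MIC-1 and LPS. Liver is a mixture of cells, and in such bulk samples fewer cells of a type and less RNA per cell cannot be told apart.

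**Figure D3:**
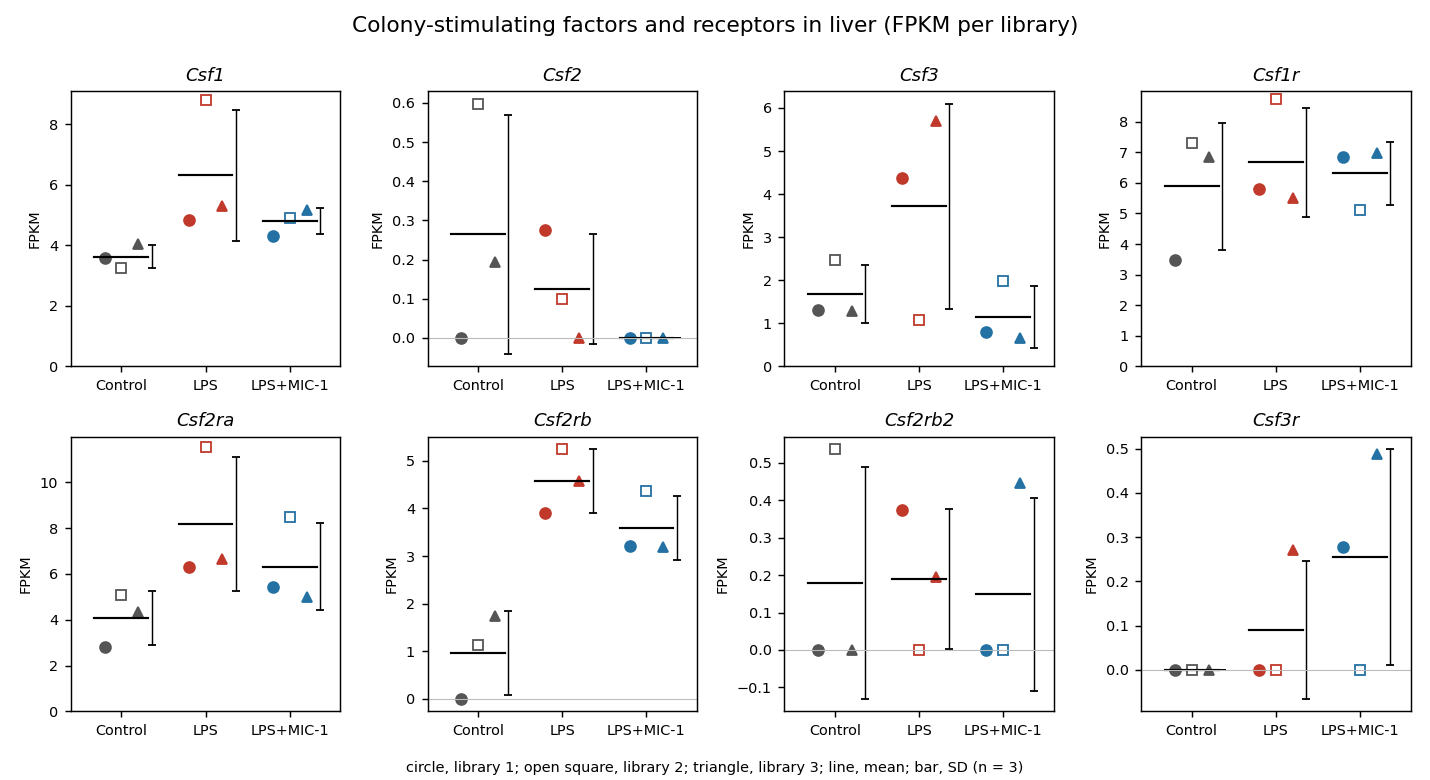
FPKM of the 8 genes (vertical axes) in each of the 9 liver libraries, grouped as control, LPS and LPS+MIC-1 on the horizontal axes, with the mean as a line and the SD of 3 libraries as a bar. Csf2rb lies between 3.19 and 5.25 FPKM in the 6 treated livers and at or below 1.75 in the controls, and Csf2, Csf2rb2 and Csf3r stay below 0.6 FPKM.

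Csf2rb was listed at 0 FPKM in liver control library 1 and was at 1.14 and 1.75 FPKM in the other controls. An exact 0 in this table says only that a gene is listed at 0: Cebpa, a transcription factor gene that hepatocytes express, was at 0 in all control and LPS livers and at no more than 0.0293 FPKM with LPS+MIC-1. The LPS livers held 3.91, 5.25 and 4.57 FPKM and the LPS+MIC-1 livers 3.21, 4.37 and 3.19. Every treated liver was above every control, and the treated groups overlapped. The control mean of Csf2rb, 0.963 FPKM, was under the limit for testing. The gene passed that limit only through the treated livers, in which it was then called higher. Csf2rb rose by a Log2FC of 2.04 ± 0.49 with LPS (SE; adjusted p = 0.016, limma) and 1.73 ± 0.49 with LPS+MIC-1 (adjusted p = 0.0265). In each, 1 of the 5 tested members was called, Csf2rb itself, where 24.6% and 25.2% of all genes were. Without control library 1 these were 1.39 (adjusted p = 0.00621) and 1.08 (adjusted p = 0.0119). The call with LPS was lost without LPS library 3 (adjusted p = 0.0576), and that with LPS+MIC-1 without any 1 of the LPS+MIC-1 libraries (adjusted p = 0.0645 to 0.072) or with FPKM rescaled to an equal sum (1.22, adjusted p = 0.113). Its paralog Csf2rb2 was at 0, 0.537 and 0 FPKM in controls, 0.375, 0 and 0.194 under LPS and 0, 0 and 0.446 under LPS+MIC-1, at most 27.2 normalized counts, and was not tested.

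Csf2ra was at 2.80, 5.07 and 4.35 FPKM in controls, 6.32, 11.6 and 6.64 under LPS and 5.44, 8.49 and 5.01 under LPS+MIC-1. LPS lay above control without overlap, and LPS+MIC-1 overlapped both. The Log2FC was 0.91 ± 0.31 with LPS (SE; adjusted p = 0.052, limma) and 0.57 ± 0.31 with LPS+MIC-1 (adjusted p = 0.175), neither called.

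Csf1 was at 3.58, 3.26 and 4.03 FPKM in controls, 4.83, 8.81 and 5.30 under LPS and 4.32, 4.91 and 5.17 under LPS+MIC-1. Both treated groups lay above control without overlap. With LPS its Log2FC of 0.68 ± 0.23 passed the p but not the fold (adjusted p = 0.0493, limma), and with LPS+MIC-1 it was 0.36 ± 0.23 (adjusted p = 0.239). Its receptor Csf1r was at 3.49, 7.32 and 6.84 FPKM in controls, 5.79, 8.73 and 5.49 under LPS and 6.85, 5.11 and 6.97 under LPS+MIC-1. The 3 groups overlapped, with a Log2FC of 0.20 ± 0.30 with LPS (adjusted p = 0.615) and 0.14 ± 0.30 with LPS+MIC-1 (adjusted p = 0.726).

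Csf3 was at 1.32, 2.47 and 1.28 FPKM in controls, 4.38, 1.08 and 5.70 under LPS and 0.805, 1.98 and 0.667 under LPS+MIC-1. LPS libraries 1 and 3 were the highest of the 9, and LPS library 2 lay within the LPS+MIC-1 range. LPS+MIC-1 differed from LPS by a Log2FC of -1.22 ± 0.53 (SE; unadjusted p = 0.0499, adjusted p = 0.997, limma). Csf3 was not called between LPS and control over 9 libraries (0.77 ± 0.53, adjusted p = 0.277) and was without LPS library 2 (1.37, adjusted p = 0.0239).

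Between LPS+MIC-1 and LPS, limma called 0 of 5 members and 0.0% of all genes in liver. With LPS library 2 left out, 20 genes were called higher and 15 lower, and still 0 members, with Csf3 at a Log2FC of -1.82 (adjusted p = 0.102). At an unadjusted p below 0.05 with the same fold, 1 member passed, Csf3, as did 0.986% of all genes. The members' median Log2FC was 0.77 with LPS and 0.36 with LPS+MIC-1 against control, beside 0.15 over all genes in each, and -0.32 between LPS+MIC-1 and LPS, beside -0.01. Rescaling to an equal sum moved the median of all genes by more than 0.1, to -0.19, -0.45 and -0.26 in the same order, the calls of all genes from 1356 higher and 1137 lower to 793 and 1908 with LPS and from 1396 and 1164 to 531 and 2644 with LPS+MIC-1, and turned the sign of Csf1 (-0.22), Csf2ra (-0.02) and Csf1r (-0.46) between LPS+MIC-1 and control and of Csf1r between LPS and control (-0.14), none of them called.

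Csf2 was listed at 0 in all 3 LPS+MIC-1 livers, at 0, 0.598 and 0.195 FPKM in the controls and at 0.276, 0.0987 and 0 in the LPS livers, all of it at most 5.79 normalized counts per library, so that no difference was detectable at this depth. Csf3r was listed at 0 in the 3 control livers, at 0, 0 and 0.271 FPKM with LPS and at 0.277, 0 and 0.487 with LPS+MIC-1. In control livers Csf1r (5.88 ± 2.08 FPKM, SD, n = 3), Csf2ra (4.07 ± 1.16) and Csf1 (3.62 ± 0.386) overlapped at the top of the order. With LPS, Csf2ra (8.17 ± 2.93), Csf1r (6.67 ± 1.79), Csf1 (6.31 ± 2.17), Csf2rb (4.58 ± 0.666) and Csf3 (3.72 ± 2.38) overlapped each with the next.

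Markers of cells that carry these receptors moved with the treatments in liver. Of the 9 neutrophil markers 8 rose with LPS and Cxcr2 fell, and 6 rose and 1 fell with LPS+MIC-1. In treated livers their sums were mostly S100a8, at 228 to 286 FPKM with LPS and 141 to 339 with LPS+MIC-1. The monocyte sums there were mostly Plac8, at 59.2 to 73.9 FPKM with LPS and 47.3 to 71.7 with LPS+MIC-1. The neutrophil markers summed to 37.6 to 53.5 FPKM in control, 355 to 452 with LPS and 193 to 464 with LPS+MIC-1, and the 7 monocyte markers to 4.13 to 10.1, 84.6 to 121 and 72.3 to 91.6. The 6 macrophage markers summed to 29.8 to 43.0, 126 to 622 and 126 to 435 FPKM, and the 6 Kupffer cell markers to 31.1 to 56.3, 42.5 to 60.3 and 63.4 to 106. Under LPS the macrophage sums were mostly Cd14, at 569.2, 84.2 and 551.5 FPKM. Of the 5 macrophage markers tested, 2 rose and 1 fell with LPS, and 2 rose and 0 fell with LPS+MIC-1. Of all genes, 24.6% were called with LPS and 25.2% with LPS+MIC-1. Of the 6 Kupffer cell markers, 1 rose and 2 fell with LPS, and 2 rose and 2 fell with LPS+MIC-1. Clec4f, a defining lectin gene of these cells, fell (Log2FC -2.11 with LPS, adjusted p = 0.00619, limma), as did Vsig4 (-1.47, adjusted p = 0.0125), while the scavenger receptor gene Marco rose from at most 6.79 FPKM in controls to 23.1, 40.4 and 31.3 under LPS and 74.2, 38.4 and 75.6 under LPS+MIC-1. Clec1b rose with LPS+MIC-1 (1.39, adjusted p = 0.0151). The higher Kupffer sums of the LPS+MIC-1 livers rest on Marco. The part of these cells in the rise of Csf2rb was not tested. Depth moved with the treatment too, from at most 9.71 M reads in the controls to as many as 17.3 M reads in the treated livers, and its part was not tested either.

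**Figure D4:**
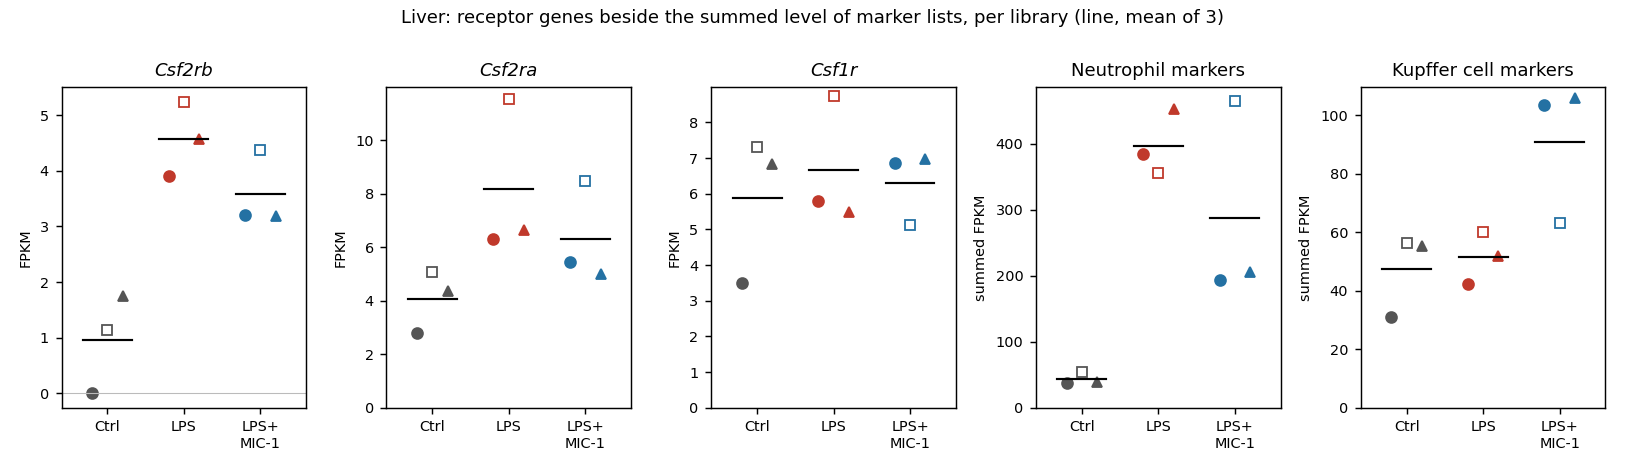
FPKM of Csf2rb, Csf2ra and Csf1r and the summed FPKM of 9 neutrophil and 6 Kupffer cell markers (vertical axes) in the 9 liver libraries by group (horizontal axes), with the mean as a line. Csf2rb and the neutrophil sum (37.6 to 53.5 FPKM in control, at least 193 in the treated livers) are both higher in every treated liver than in every control, while Csf1r overlaps between groups.

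Of the 29 signalling genes, 26 were tested in liver, and 9 were called with LPS, 8 higher and 1 lower, where 24.6% of all genes were. Socs3, an inhibitor induced by Stat3, was at 5.12, 7.74 and 4.78 FPKM in controls, 42.2, 25.2 and 40.4 under LPS and 31.8, 38.8 and 31.3 under LPS+MIC-1 (Log2FC with LPS+MIC-1 against control 2.46 ± 0.26, adjusted p = 0.000856, and with LPS adjusted p = 0.000742, limma). The myeloid kinase gene Fgr (2.38 ± 0.28, adjusted p = 0.00124) and the factor gene Stat3 (1.74 ± 0.30, adjusted p = 0.00566) also rose with LPS. Fgr was at 0.367, 0.879 and 0.269 FPKM in controls and passed the limit for testing only through the treated livers. Among the 8 is Grb2, an adaptor gene that cells use widely, which was listed at 0 in all 3 control livers and at 0.472 to 6.42 FPKM with LPS, so its direction rests on those zeros. Socs2, an inhibitor of growth hormone signalling, fell by 2.09 on the log2 scale (SE 0.61, adjusted p = 0.0299). With LPS+MIC-1 8 were called against control, where 25.2% of all genes were. Of these 8, 6 were higher and 2 lower, the latter being Socs2 and Cish. Against LPS, 0 were called. The list's median Log2FC was 0.70, 0.38 and -0.16 for LPS against control, LPS+MIC-1 against control and LPS+MIC-1 against LPS.

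Of 12 myeloid transcription factors, 8 were tested in liver. With LPS 4 rose and 2 fell, where 24.6% of all genes were called, and Cebpd rose by the most (3.03 ± 0.30, adjusted p = 0.000631, limma). Sfpi1, which encodes PU.1, a factor that activates Csf1r and Csf2ra in myeloid cells, rose by 1.55 ± 0.21 (adjusted p = 0.00242). The alpha chains that pair with Csf2rb moved apart. Il3ra was at 2.17, 4.53 and 3.32 FPKM in controls, 6.31, 9.58 and 7.15 under LPS and 10.6 to 13.7 under LPS+MIC-1, and it rose by 1.12 ± 0.26 with LPS (adjusted p = 0.0145) and 1.79 ± 0.26 with LPS+MIC-1 (adjusted p = 0.0028). Il5ra was at 4.08, 4.91 and 3.74 FPKM in controls, 1.28, 2.24 and 0.672 under LPS and 0.712, 1.05 and 0.795 under LPS+MIC-1, and it fell by 1.40 with LPS (SE 0.32, adjusted p = 0.0127) and by 1.81 with LPS+MIC-1 (SE 0.32, adjusted p = 0.00484).

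Over the 9 liver libraries the genes most like Csf2rb included Pyhin1 (Pearson's r = 0.987) and Lcp2 (0.981), described over livers that share the same markers and depths as above.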

How the data were processed

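The 2 tables of RNA-seq values covered 9 RAW264.7 and 9 liver libraries. The authors quantified transcripts with Kallisto 0.45.0 against RefSeq (mm9), imported gene sums through tximport, and deposited the FPKM that DESeq2 1.20.0 computed with its size factors. From the comparison tables only the authors' mean normalized count per gene, a signal over all libraries, was used, to turn FPKM into approximate normalized counts. The deposited fold changes and p-values of these tables were not used.

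The members and lists were chosen with earlier results of these data known. Table columns carry the treatment and no replicate number, so libraries are numbered by table order. Genes with a mean FPKM above 1 entered limma as log2(FPKM + 0.5), with the 3 groups in 1 linear model and moderated variances with a trend, with Benjamini-Hochberg adjustment over all genes tested. Depth was estimated from the steps that 1 read makes in low values. Intervals that need read counts are not given. The genes named are the 8 members and list members past the threshold (at most 6 per comparison, or the 2 with the smallest p). Also named are the 3 genes with the highest Pearson's r to up to 5 members. Ccl5, Il34, Cebpa, S100a8, Mmp9, Cd14, the Kupffer cell genes and list genes with values from 8 libraries were picked after seeing their values. Cd68 and Ly6g of the marker lists are not analysed here. Some genes that the rule selects are not reported here.

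On simulated data with 200 genes changed by a Log2FC of 2, the fit called 92.5% in macrophages and 70.5% in liver between LPS and control, 0 in the wrong direction, and 1 of the unchanged genes of 9905 tested in macrophages and 3 of 10147 in liver. The simulated macrophage spread came from the control and LPS+MIC-1 libraries only, and all simulated libraries were drawn as independent. The macrophage share thus does not describe the fit over all 9 macrophage libraries, which called 0.0% of genes between LPS and control. Software was limma 3.58.1 under R 4.3.3, and pandas 2.3.3, numpy 2.4.6, scipy 1.17.1 and matplotlib 3.10.9 under Python 3.11.15. Alternatives were other pseudocounts, no filter, other scalings, 2 groups per fit, no trend, other thresholds, summed paralogs, and each library left out. Averaging the close macrophage libraries 1 and 3 of each treatment, and an equal sum without LPS library 2, were chosen after seeing the data.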

Additional observations from a re-analysis of the deposited data

Results flagged for a closer look

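Some Log2FC values had opposite signs in the macrophage and liver tables under the same contrast. These differences between the tables, which were scaled separately, were not tested. Csf1 was at -0.59 in macrophages and 0.68 in liver between LPS and control, and at 0.58 and -0.32 between LPS+MIC-1 and LPS. Csf2 was at 3.16 in macrophages and -0.30 in liver between LPS+MIC-1 and LPS, and at 3.72 and -0.54 between LPS+MIC-1 and control, where the liver values rest on at most 5.79 normalized counts per library. Csf3 was at 4.79 in macrophages (2.33 without LPS library 2) and -1.22 in liver between LPS+MIC-1 and LPS. Csf2rb was at 1.09 in macrophages and -0.32 in liver in the same contrast. The macrophage values are over all 9 libraries unless stated, and their signs were the same without LPS library 2.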

How the results depend on the processing

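No paired analysis was possible because the columns carry no replicate numbers. Of 111 counts of called members under the alternatives, 82 stayed within 1.5 times the value reported. Of 678 single Log2FC values, 604 kept their sign and their side of the threshold, 24 gained a call, 35 lost one and 15 changed sign. In the cases that follow the cause was not tested. Leaving out each library in turn, the members called in macrophages ranged from 0 to 4 for LPS against control, 0 to 2 for LPS+MIC-1 against LPS and 2 to 5 for LPS+MIC-1 against control, the upper value of the first and last arising without LPS library 2. The shares of all genes called ranged from 0.0% to 34.2%, 1.1% to 23.3% and 1.42% to 15.7% in the same order. In liver the members called ranged from 0 without LPS library 3 (12.1% of all genes) to 2 without LPS library 2 (34.6%) between LPS and control. Between LPS+MIC-1 and control they ranged from 0 to 1, where 17.2% to 30.7% of all genes were called. In macrophages, averaging libraries 1 and 3 of each treatment, which leaves fewer samples, gave 0 members and 0 of all genes in every comparison, down from 2 for LPS+MIC-1 against LPS and from 3 for LPS+MIC-1 against control. No filter gave 1 between LPS+MIC-1 and LPS (2.05% of all genes). Fitting only the 2 groups compared gave 0 members for LPS+MIC-1 against LPS (0.0505% of all genes) and 5 for LPS+MIC-1 against control (15.6%). An equal sum over 8 libraries gave 3, 6 and 5 members for LPS against control, LPS+MIC-1 against LPS and LPS+MIC-1 against control, where it called 51.0%, 38.8% and 17.3% of all genes. In liver an adjusted p below 0.01 gave 0 between LPS and control (10.9% of all genes). An unadjusted p below 0.05 gave 1 between LPS+MIC-1 and LPS (0.986%). Between LPS+MIC-1 and control 0 liver members were called with an equal sum, only the 2 groups, a pseudocount of 0.1 or an adjusted p below 0.01. Of all genes, these settings called 31.1%, 26.0%, 26.9% and 13.5%.

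Signs changed only in differences that were not called. In macrophages Csf1r between LPS+MIC-1 and LPS was at -0.0863 with libraries 1 and 3 averaged and between -0.19 and 0.77 with each library left out, Csf2ra in the same contrast between -0.21 and 0.31, and Csf1 between LPS+MIC-1 and control between -0.12 and 0.084. In liver an equal sum gave -0.14 for Csf1r between LPS and control, and -0.22 for Csf1, -0.46 for Csf1r and -0.0224 for Csf2ra between LPS+MIC-1 and control. Csf1r in liver ranged from -0.11 to 0.38, -0.17 to 0.14 and -0.16 to 0.32 with each library left out, for LPS against control, LPS+MIC-1 against LPS and LPS+MIC-1 against control. Depth limits Csf2 in liver and in macrophage controls, with at most 5.79 and 4.37 normalized counts per library.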
